A study of Mus musculus with 16 samples.

Results

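Pre-memory cells (Fraction 6, n = 2 libraries) were compared with recycling-prone germinal centre cells (Fraction 2, n = 2 libraries) by RNA sequencing of sorted mouse B cells. The 4 libraries were taken by their sample labels from a set of 16 that covers 6 sort gates. All cells of both gates were C57BL/6 donor B cells of genotype Bcl6-YFP(KI/+) B1-8hi(KI/+), which carry a fluorescent knock-in reporter of the germinal centre repressor Bcl6 and a knock-in antibody heavy chain that favours binding of the hapten NP. They had been transferred as naive cells into wild-type CD45.1+ mice that were then given the NP-coupled protein CGG with alum i.p. On day 10, cells positive for CD45.2, NP binding and IgG1 and negative for CD138 were sorted from spleen cells pooled over 9 recipients. Within them, the Fraction 6 gate was CD38+GL7- with low Bcl6-YFP and high Efnb1, and the Fraction 2 gate was CD38-, CD86hi and CXCR4lo with high Bcl6-YFP and high CD69. The reporter, the heavy chain knock-in, the transfer and the immunization are thus shared by both gates, and the ages of the mice are not given in the sources used here. Nothing in the labels says whether the libraries of a gate came from separate transfers, so the p-values reflect variation among these libraries alone, and this may be technical variation.

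Germinal centres are sites in lymphoid follicles where activated B cells divide and mutate their receptors in a dark zone and are then tested for antigen binding and T cell help in a light zone. Light zone cells that receive help can switch on Myc, grow and go back to the dark zone to divide, while others leave as memory cells, which are small, rarely divide and recirculate. Retention in the follicle depends on receptors such as S1pr2, and exit into lymph and blood on S1pr1, whose gene is driven by the transcription factor Klf2.

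The deposited level of a gene is its FPKM, fragments per length of transcript, scaled to the mapped fragments of the library, and all levels are given on that scale. A gene was tested if it reached 1 FPKM in at least 2 of the 16 libraries, and log2 changes are Fraction 6 minus Fraction 2 of log2(FPKM + 1), a scale that understates the change of low genes. The value after ± is the standard error of a log2 change. A gene passed at a limma p-value below 0.05 after Benjamini-Hochberg adjustment over the 11266 genes tested. An exact permutation of 2 against 2 libraries cannot go below p = 0.333, so the test borrows its estimate of spread from all 6 gates. Sequencing depth relative to Fraction 2 library 1 was estimated from genes above 0 and below 0.15 FPKM in both libraries compared. It was taken as the inverse of the most common ratio of their FPKM values. It was 1.08 and 1.17 in the Fraction 6 libraries and 1.0 and 1.03 in the Fraction 2 libraries. The most common ratio held for 83 of 832 and 68 of 831 genes in the Fraction 6 libraries. In Fraction 2 library 2 it held for 54 of 791 genes, so the estimates are rough. Between the libraries of a gate, 17 of 7589 genes with a mean of at least 5 FPKM differed by 2-fold or more in Fraction 6 and 32 of 7696 in Fraction 2. These counts leave out small nucleolar, small Cajal body and micro RNA genes, a rule added after seeing the data. Some of those genes differed widely, such as Snora61 at 769 and 186 FPKM in Fraction 6. In bulk samples, fewer cells of a type that express a gene and less RNA of it per cell cannot be told apart.

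Pre-memory cells differed from recycling-prone cells over 52.2% of the tested genes. Of 11266 genes, 2365 (21.0%) rose and 3520 (31.2%) fell in Fraction 6, so 40.2% of the genes that passed were higher, a share that became 51.3% after quantile normalization. With a change of at least 2-fold added to the rule, 571 genes (5.07%) rose and 1126 (9.99%) fell. The median log2 change over all tested genes was -0.06. Irrespective of the test, both Fraction 6 libraries lay above both Fraction 2 libraries for 33.7% of the genes and below both for 42.5%. Counts of list members that rose or fell are to be read against 21.0% and 31.2%, and statements that the gates do not overlap against 33.7% and 42.5%. The lists were chosen with earlier results of these data known, so a share above 21.0% or 31.2% may partly reflect that choice.

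Of the 5 genes given as markers for this comparison, 3 were higher and 2 lower in pre-memory cells. Klf2, the egress factor, had 160.2 and 187 FPKM in Fraction 6, against 9.78 and 8.26 FPKM in Fraction 2, a log2 change of 4.12 ± 0.20 (adjusted p = 5.71e-09). The chemokine receptor gene Ccr6, known as a marker of memory precursors, stood at 96.2 and 99.4 FPKM in Fraction 6, against 10.5 and 8.20 FPKM in Fraction 2, and rose by 3.26 ± 0.16. The mean of Fraction 6 was 19.3 times that of Fraction 2 for Klf2 and 10.5 times for Ccr6. Myc, the growth factor-induced transcription factor, had 23.2 and 25.5 FPKM in Fraction 6, against 54.6 and 45.4 FPKM in Fraction 2 (log2 change -1.0 ± 0.15, adjusted p = 6.81e-05). Srm, spermidine synthase of the polyamine pathway, had 17.1 and 23.6 FPKM in Fraction 6, against 86.0 and 68.7 FPKM in Fraction 2, and fell by 1.88 on the log2 scale. Ccnd2, the gene of cyclin D2, had 16.7 and 15.4 FPKM in Fraction 6, against 11.5 and 11 FPKM in Fraction 2. Its rise of 0.48 ± 0.19 in Fraction 6 was small (adjusted p = 0.0452) and was not called when any 1 of the 4 libraries was left out, with adjusted p between 0.0887 and 0.171. The libraries of the gates did not overlap for any of the 5 genes.

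**Figure D1:**
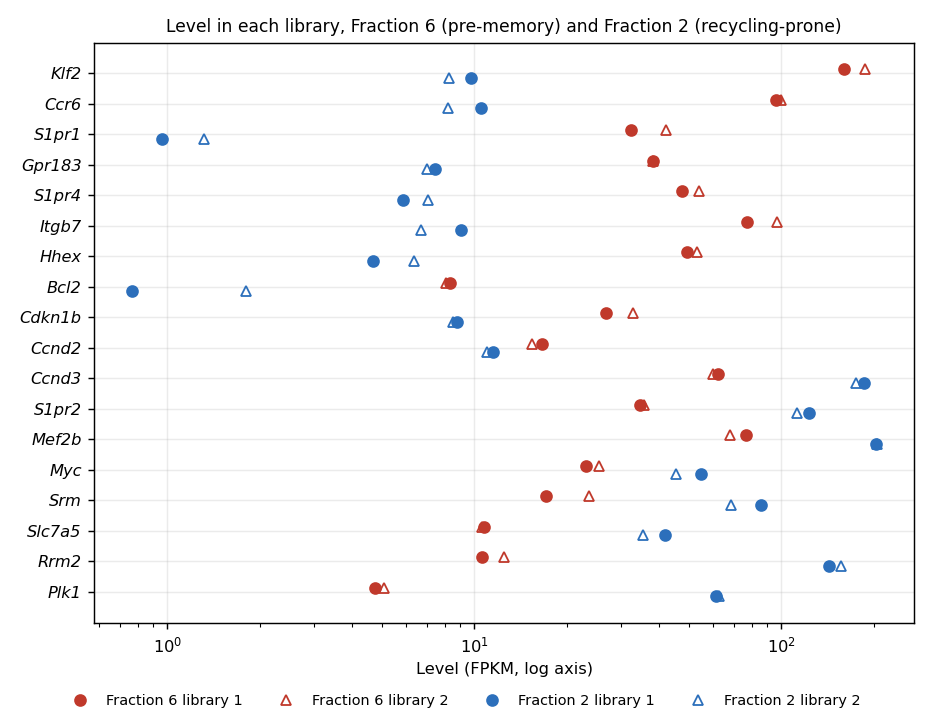
Level of 18 genes in each of the 4 libraries in FPKM on a log axis, with Fraction 6 in red above Fraction 2 in blue, library 1 as a filled circle and library 2 as an open triangle. Klf2 reached 160 and 187 FPKM in Fraction 6 and lay under 10 FPKM in Fraction 2, while Plk1 was at 4.74 and 5.07 FPKM in Fraction 6 and above 60 FPKM in Fraction 2.

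Messenger RNA of the proteins used for sorting followed the gates in part. Cd38, an ectoenzyme kept high on memory cells, had 75.3 and 76.4 FPKM in Fraction 6, against 10.7 and 11.7 FPKM in Fraction 2. Bcl6 had 75.3 and 70.2 FPKM in Fraction 6, against 145 and 146 FPKM in Fraction 2. Both genes check the gates and are no results, although Cd38 also stands in the memory list and Bcl6 in that of germinal centre identity. Bcl6 RNA was lower but present in the Bcl6-YFP-low gate; in the 3 libraries of the mature memory gate (Fraction 7) it stood at 20.5, 18.4 and 15.0 FPKM. Cd69, which encodes an early activation antigen that holds S1pr1 inside the cell, had 17.6 and 20.5 FPKM in Fraction 6, against 13.4 and 13.3 FPKM in Fraction 2, higher in Fraction 6 although Fraction 2 was sorted for high CD69 protein (log2 change 0.48 ± 0.14, adjusted p = 0.0103, and 0.0936 without Fraction 6 library 2). Cd86, the costimulatory ligand, was also higher in Fraction 6, at 99.9 and 111 FPKM in Fraction 6, against 76.0 and 69.5 FPKM in Fraction 2, while Fraction 2 was sorted as CD86hi. Efnb1, an ephrin on germinal centre cells, had 32.4 and 27.5 FPKM in Fraction 6, against 35.6 and 33.5 FPKM in Fraction 2, and did not pass (adjusted p = 0.189). Cxcr4, the dark zone chemokine receptor, had 28.3 and 38.4 FPKM in Fraction 6, against 39.4 and 40.3 FPKM in Fraction 2, and did not pass either (adjusted p = 0.166), but passed without Fraction 6 library 2 at a log2 change of -0.48. Sdc1, which encodes CD138, stayed below 1 FPKM in all 4 libraries, and Ptprc, the CD45 gene, had 328 and 347 FPKM in Fraction 6, against 245 and 246 FPKM in Fraction 2. Like Cd38 and Bcl6, these sort genes are included in list counts below. Cd86 is counted with antigen presentation, Cd69 with early activation and Cxcr4 with trafficking genes. Efnb1 is counted with germinal centre identity, Ptprc with BCR and Sdc1 with plasma cell genes.

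Most genes of exit, homing and follicular position were higher in pre-memory cells. Of 28 tested trafficking genes of 30 listed, 20 rose, 4 fell and 4 did not pass, with a median log2 change of 0.61. S1pr1, the exit receptor, stood at 32.5 and 42.1 FPKM in Fraction 6, against 0.963 and 1.31 FPKM in Fraction 2, and rose by 4.16 ± 0.21. For S1pr1 the mean of Fraction 6 was 32.8 times that of Fraction 2. S1pr4, another sphingosine-phosphate receptor, had 47.4 and 53.8 FPKM in Fraction 6, against 5.84 and 7.04 FPKM in Fraction 2, and S1pr3 changed far less, with 34.5 and 36.1 FPKM in Fraction 6, against 28.3 and 26.7 FPKM in Fraction 2 (log2 change 0.35, adjusted p = 0.039). S1pr1 and S1pr4 thus separated the gates widely and S1pr3 did not. S1pr2, the receptor that confines cells to the germinal centre, went the other way, with 34.7 and 35.6 FPKM in Fraction 6, against 123 and 112 FPKM in Fraction 2, and a log2 change of -1.71 ± 0.12. Its coupling partner Gna13, a G protein subunit, fell less, at 36.7 and 35.8 FPKM in Fraction 6, against 53.5 and 49.9 FPKM in Fraction 2. Rgs13, a brake on chemokine signalling in germinal centre cells, had 26.3 and 19.5 FPKM in Fraction 6, against 51.3 and 75.5 FPKM in Fraction 2. Both retention genes, S1pr2 and Gna13, were lower in each Fraction 6 library than in either Fraction 2 library. Of the 4 genes that fell, Rgs1 was low, with 1.23 and 2.00 FPKM in Fraction 6, against 3.44 and 4.12 FPKM in Fraction 2, and lost its call without 3 of the 4 libraries in turn.

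Receptors and integrins of cells that move outside the germinal centre also rose. Gpr183, the oxysterol receptor of the outer follicle, had 38.2 and 38.1 FPKM in Fraction 6, against 7.45 and 7.02 FPKM in Fraction 2 (log2 change 2.25), and Ccr7, the receptor for T zone chemokines, had 6.78 and 7.71 FPKM in Fraction 6, against 0.346 and 0.187 FPKM in Fraction 2 (log2 change 2.70). Cxcr5, which draws B cells into follicles, rose by 0.40, at 135 and 128 FPKM in Fraction 6, against 102 and 96.3 FPKM in Fraction 2. The integrin genes Itgb7 and Itga4, whose products pair as a gut homing receptor, had 77.5 and 97.0 FPKM in Fraction 6, against 9.03 and 6.71 FPKM in Fraction 2 for Itgb7 and 22.8 and 25.4 FPKM in Fraction 6, against 6.82 and 6.95 FPKM in Fraction 2 for Itga4. Both integrin genes were higher in each Fraction 6 library, Itgb7 by more. Cxcr3, a receptor for interferon-induced chemokines, was low in both gates but higher in Fraction 6, with 4.18 and 5.81 FPKM in Fraction 6, against 0.533 and 0.896 FPKM in Fraction 2. The related factor Klf3 rose with Klf2, at 13.4 and 16.2 FPKM in Fraction 6, against 0.677 and 0.628 FPKM in Fraction 2. The leukocyte integrin chains Itgb1 and Itgb2 did not pass, with log2 changes of -0.04 and 0.02.

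Most genes known from memory B cells were higher in pre-memory cells, with 24 of 28 tested members higher, 1 lower and 3 not passing, at a median log2 change of 1.6. With any 1 of the 4 libraries left out, 20 to 23 rose. Members shared with the trafficking list include Ccr6, Cxcr3 and Gpr183. Hhex, a repressor needed for memory cell formation in mice, had 49.1 and 53.3 FPKM in Fraction 6, against 4.69 and 6.34 FPKM in Fraction 2 (log2 change 3.01 ± 0.24). Its corepressor partner Tle3 stood at 24.9 and 25.8 FPKM in Fraction 6, against 11.4 and 9.06 FPKM in Fraction 2. Ski, another corepressor, had 2.34 and 3.36 FPKM in Fraction 6, against 0.530 and 0.554 FPKM in Fraction 2. Hhex and both corepressor genes were higher in each Fraction 6 library. Zfp318, a nuclear protein of mature B cells, had 18.1 and 17.8 FPKM in Fraction 6, against 1.17 and 2.05 FPKM in Fraction 2. Bach2, a transcription factor that favours the memory fate, did not pass at 30.9 and 32.8 FPKM in Fraction 6, against 28.2 and 26.4 FPKM in Fraction 2 (log2 change 0.22, adjusted p = 0.223). Cd55, which protects cells from complement, had 24.0 and 34.4 FPKM in Fraction 6, against 1.16 and 1.01 FPKM in Fraction 2, and rose by 3.83 ± 0.21. Regulators known from later memory cells were low: Bhlhe41 had 3.63 and 6.08 FPKM in Fraction 6 and was listed at 0 in both Fraction 2 libraries, and Zbtb32 had 3.90 and 7.48 FPKM in Fraction 6, against 0.995 and 1.90 FPKM in Fraction 2. The gates did not overlap for any of these genes, Bach2 included. Ly6d, a surface protein of B cells, was abundant, with 351 and 386 FPKM in Fraction 6, against 87.6 and 97.7 FPKM in Fraction 2. Among markers used to divide memory cells into subsets, Pdcd1lg2 had 11.6 and 11 FPKM in Fraction 6, against 3.54 and 3.32 FPKM in Fraction 2. Cd80 had 2.03 and 2.51 FPKM in Fraction 6, against 0.863 and 1.51 FPKM in Fraction 2. Nt5e had 9.08 and 8.80 FPKM in Fraction 6, against 6.33 and 7.09 FPKM in Fraction 2. All 3 were higher in both Fraction 6 libraries, Pdcd1lg2 by the widest margin. Anxa2, the only member that fell, had 34.6 and 43.0 FPKM in Fraction 6, against 58.6 and 53.9 FPKM in Fraction 2, and was not called without Fraction 6 library 1 or either Fraction 2 library.

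Some memory genes differed between the Fraction 6 libraries as well. Plac8, a small cysteine-rich protein of leukocytes, had 13.6 and 45.3 FPKM in Fraction 6, against 1.93 and 0.537 FPKM in Fraction 2. S100a10, a partner of annexin A2, had 13.4 and 35.1 FPKM in Fraction 6, against 0 and 0.741 FPKM in Fraction 2, and S100a6 had 0.734 and 3.81 FPKM in Fraction 6 and was listed at 0 in both Fraction 2 libraries. Fraction 6 library 2 was the higher one for all 3 genes, and its lower partner was still above Fraction 2. The intermediate filament gene Vim and the scaffold gene Ahnak rose too, with 230.3 and 304 FPKM in Fraction 6, against 63.3 and 67.9 FPKM in Fraction 2 for Vim and 1.82 and 2.87 FPKM in Fraction 6, against 0.0494 and 0.0222 FPKM in Fraction 2 for Ahnak.

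The germinal centre programme was lower in pre-memory cells, though not evenly. Of 25 tested germinal centre identity genes, 14 fell, 4 rose and 7 did not pass, with a median log2 change of -0.74. Gcsam, a germinal centre-specific signalling adaptor listed under its older symbol Gcet2, had 4.42 and 4.93 FPKM in Fraction 6, against 42.5 and 40.3 FPKM in Fraction 2 (log2 change -2.90 ± 0.13). Mef2b, a transcription factor upstream of Bcl6, had 76.8 and 68.3 FPKM in Fraction 6, against 203 and 205 FPKM in Fraction 2. Basp1 had 60.2 and 49.8 FPKM in Fraction 6, against 216 and 215 FPKM in Fraction 2. These 3 genes were lower in both Fraction 6 libraries. Ezh2, the Polycomb methyltransferase needed for germinal centre growth, stood at 21.1 and 22.9 FPKM in Fraction 6, against 74.1 and 85.6 FPKM in Fraction 2. Among DNA repair genes of hypermutation, Ung, the uracil glycosylase, had 5.64 and 6.79 FPKM in Fraction 6, against 30.8 and 24.4 FPKM in Fraction 2, and Polh, an error-prone polymerase, had 10.02 and 8.67 FPKM in Fraction 6, against 29.3 and 32.0 FPKM in Fraction 2. The repair genes were thus lower in pre-memory cells without overlap. Fas, a death receptor of germinal centre cells, and Il21r, the receptor for the helper cytokine IL-21, did not pass, with log2 changes of -0.24 and -0.08. The 4 members that rose are also known from B cells outside germinal centres, namely Il4ra, Bcl11a, Spib and Ebf1, with Il4ra, a chain of the IL-4 receptor, at 84.0 and 88.7 FPKM in Fraction 6, against 45.2 and 38.9 FPKM in Fraction 2.

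**Figure D2:**
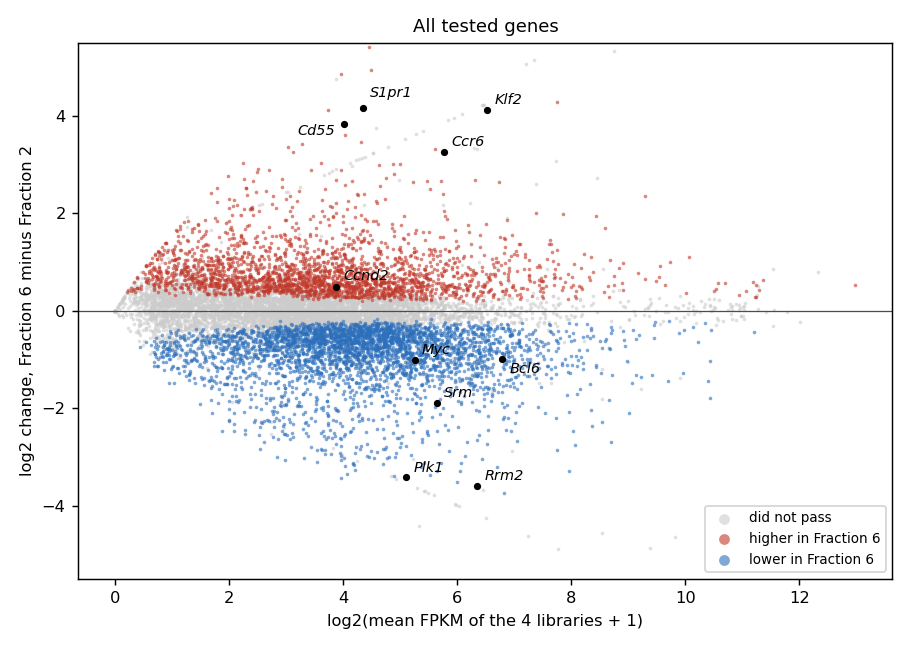
Each point is 1 tested gene, with the log2 of the mean FPKM of the 4 libraries plus 1 on the horizontal axis and the log2 change, Fraction 6 minus Fraction 2, on the vertical axis; genes that rose are red, genes that fell are blue and genes that did not pass are grey, and 13 genes lie outside the axis. S1pr1 and Klf2 lie above 4, Rrm2 and Plk1 below -3, and Ccnd2 just above 0.

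Most genes of cell growth were lower in pre-memory cells. The Myc network did not fall as a list: of its 11 tested genes, 3 fell and 4 rose, at a median log2 change of 0.29. Besides Myc, Mxd3 fell, a Myc antagonist of dividing cells, with 5.48 and 6.50 FPKM in Fraction 6, against 32.2 and 31.9 FPKM in Fraction 2 (log2 change -2.25). Mxd4, a Myc antagonist of resting cells, rose, with 103 and 85.2 FPKM in Fraction 6, against 49.5 and 36.4 FPKM in Fraction 2, as did Mnt and Mlxip, while Max, the shared partner, had 53.4 and 52.1 FPKM in Fraction 6, against 51.9 and 52.1 FPKM in Fraction 2, and did not pass. Of 36 ribosome biogenesis genes, 35 fell, none rose, and Ubtf did not pass, at a median log2 change of -1.02 and a summed level of 1094 and 1207 FPKM in Fraction 6, against 2650 and 2655 FPKM in Fraction 2. Nop58, a core protein of small nucleolar RNPs, had 25.7 and 28.7 FPKM in Fraction 6, against 102 and 108 FPKM in Fraction 2 (log2 change -1.91 ± 0.14). Ncl, nucleolin, stood at 59.3 and 66.4 FPKM in Fraction 6, against 167 and 172 FPKM in Fraction 2. Polr1b, the second largest subunit of RNA polymerase I, had 8.13 and 8.41 FPKM in Fraction 6, against 17.3 and 16.4 FPKM in Fraction 2. All 3 were lower in both Fraction 6 libraries. Genes of the ribosomal proteins themselves had a median near 0. Of 56 of these, 4 rose, 9 fell and 43 did not pass, with a median log2 change of -0.03 that became 0.04 after median-ratio scaling, and the number that rose was 1 without Fraction 6 library 2, 2 without either Fraction 2 library and 8 after quantile normalization or median-ratio scaling. Rps2 was the member with the largest passing change, at 887 and 936 FPKM in Fraction 6, against 1912 and 1825 FPKM in Fraction 2, and many such genes have near-identical pseudogenes, so their levels are uncertain.

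Genes that feed growth with building blocks fell together. All 20 genes of serine, folate and purine synthesis fell, at a median log2 change of -1.57, and 18 of them by at least 2-fold. Phgdh, the first enzyme of serine synthesis, had 29.9 and 34.0 FPKM in Fraction 6, against 124 and 114 FPKM in Fraction 2 (log2 change -1.87 ± 0.13). Mthfd2, a mitochondrial folate enzyme, had 11 and 10.1 FPKM in Fraction 6, against 52.8 and 44.3 FPKM in Fraction 2. Shmt2, which passes the one-carbon unit of serine to folate, had 27.4 and 26.5 FPKM in Fraction 6, against 104 and 94.9 FPKM in Fraction 2. Impdh2, the rate-limiting enzyme of guanine nucleotide synthesis, stood at 45.7 and 53.2 FPKM in Fraction 6, against 159.8 and 157 FPKM in Fraction 2. Every gene named here was lower in both Fraction 6 libraries. Of 11 tested polyamine genes, 7 fell and 1 rose. Odc1, ornithine decarboxylase, which makes the first polyamine, had 39.9 and 45.1 FPKM in Fraction 6, against 134 and 128 FPKM in Fraction 2. Eif5a, the translation factor that carries a polyamine-derived residue, had 307 and 332 FPKM in Fraction 6, against 841 and 758 FPKM in Fraction 2. Sat1, which acetylates polyamines for removal, was the member that rose, with 84.0 and 92.2 FPKM in Fraction 6, against 45.4 and 27.8 FPKM in Fraction 2 (log2 change 1.28 ± 0.17). Amd2 is a near copy of Amd1, so its 12.5 and 12.7 FPKM in Fraction 6, against 29.8 and 31.3 FPKM in Fraction 2 are uncertain. Odc1 was thus lower and Sat1 higher in Fraction 6, while 3 of the 11 tested polyamine genes did not pass. Of 12 amino acid transporter and iron uptake genes, 6 fell and 1 rose, Slc6a6, a taurine transporter, whose call was lost with any 1 of the 4 libraries left out. Slc7a5, the leucine transporter, had 10.8 and 10.6 FPKM in Fraction 6, against 41.7 and 35.4 FPKM in Fraction 2. Tfrc, the transferrin receptor of iron uptake, had 7.39 and 10.2 FPKM in Fraction 6, against 24.8 and 24.7 FPKM in Fraction 2, but Slc7a5's partner chain Slc3a2 did not pass at 31.6 and 29.0 FPKM in Fraction 6, against 35.5 and 35.2 FPKM in Fraction 2.

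Translation, folding and protein breakdown moved in the same direction. Of 27 translation factors and tRNA synthetases, 26 fell (median log2 change -1.11), and Eif4ebp1, the mTORC1-controlled inhibitor of cap binding, was the one that did not pass, at 16.8 and 17.7 FPKM in Fraction 6, against 17.7 and 12.3 FPKM in Fraction 2. Eif4a1, the helicase of initiation, had 157 and 176 FPKM in Fraction 6, against 478 and 464 FPKM in Fraction 2. All 18 chaperonin and heat shock genes fell (median -1.33), with Hsp90aa1, the inducible HSP90, at 88.3 and 103 FPKM in Fraction 6, against 403 and 402 FPKM in Fraction 2, and Cct3, a subunit of the chaperonin, at 68.5 and 73.9 FPKM in Fraction 6, against 184 and 184 FPKM in Fraction 2. The 28 proteasome subunit genes fell as well (median -1.06), from Psmb1 at -0.42 to Psmd1 at -1.6.

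Energy and lipid genes fell with exceptions. Of 40 oxidative phosphorylation genes, 36 fell and none rose, with Cycs, cytochrome c, at 11.5 and 12.3 FPKM in Fraction 6, against 43.1 and 36.9 FPKM in Fraction 2. Of 20 tested glycolysis genes, 12 fell, among them Ldha, lactate dehydrogenase, with 131 and 149 FPKM in Fraction 6, against 438 and 413 FPKM in Fraction 2, and 2 rose. Those 2 were the glucose transporters, Slc2a3 with 10.3 and 11.1 FPKM in Fraction 6, against 4.78 and 5.49 FPKM in Fraction 2, and Slc2a1 with 15.5 and 14.9 FPKM in Fraction 6, against 10.6 and 11.8 FPKM in Fraction 2, of which Slc2a1 was not called without Fraction 6 library 1 or Fraction 2 library 1; after quantile normalization 4 members rose. Of 27 cholesterol and fatty acid synthesis genes, 22 fell. Idi1, an isomerase of the isoprenoid pathway, had 7.85 and 7.67 FPKM in Fraction 6, against 47.1 and 51.0 FPKM in Fraction 2 (log2 change -2.51 ± 0.17). Scd1, a desaturase that makes monounsaturated fatty acids, rose, with 197 and 196 FPKM in Fraction 6, against 88.4 and 93.8 FPKM in Fraction 2. The related Scd2 rose in the fit of all libraries, but not without Fraction 2 library 1 or either Fraction 6 library, which left 1 rising member.

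Cell cycle genes had the lowest medians of the 27 lists. All 38 S phase genes fell, at a median log2 change of -2.27, and 34 of 35 mitosis genes fell, at -2.84, where the median over all tested genes was -0.06. Rrm2, the ribonucleotide reductase subunit made in S phase, had 10.6 and 12.5 FPKM in Fraction 6, against 143 and 156 FPKM in Fraction 2 (log2 change -3.59 ± 0.20, adjusted p = 1.59e-08). Pcna, the sliding clamp of DNA polymerase, stood at 77.8 and 79.9 FPKM in Fraction 6, against 430.1 and 450.3 FPKM in Fraction 2. Mcm2, a subunit of the replicative helicase, had 19.7 and 19.5 FPKM in Fraction 6, against 107 and 107 FPKM in Fraction 2. For these S phase genes each Fraction 6 library was far below each Fraction 2 library. Plk1, a kinase of mitotic entry, had 4.74 and 5.07 FPKM in Fraction 6, against 61.4 and 62.5 FPKM in Fraction 2. Mki67, the proliferation antigen Ki-67, had 16.5 and 18.7 FPKM in Fraction 6, against 147 and 158 FPKM in Fraction 2. The mean of Fraction 2 was 13 times that of Fraction 6 for Rrm2, 12.6 times for Plk1 and 8.65 times for Mki67. Cdk1, the mitotic kinase, had 2.64 and 2.81 FPKM in Fraction 6, against 28.7 and 34.2 FPKM in Fraction 2, and its partner Ccnb2 had 6.66 and 8.05 FPKM in Fraction 6, against 65.1 and 62.3 FPKM in Fraction 2. Pttg1, securin, was the mitosis gene that did not pass, with 19.96 and 20.8 FPKM in Fraction 6, against 29.2 and 28.9 FPKM in Fraction 2 (log2 change -0.49, adjusted p = 0.0805).

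Promoters of Cdk1, Ccnb2 and Paics are shown as picked examples from the falling cell cycle and purine lists. Each holds the motifs marked in it. They do not stand for their lists, where many promoters lack TTTGAA or CACGTG. The sequences are the 250 bases before the start of transcription of Cdk1 (chr10:69352913-69353162, minus strand), Ccnb2 (chr9:70421555-70421804, minus strand) and Paics, a purine synthesis enzyme (chr5:76951052-76951301, plus strand), from RefSeq on GRCm38.p6, read 5′ to 3′ on the gene's strand. Capitals mark CCAAT, the box bound by NF-Y, and TTTGAA, a core found in promoters of late cell cycle genes, and for Paics also CACGTG, the E-box that Myc and Max can bind, each searched on both strands, so that ATTGG marks CCAAT on the other strand; no marked match overlaps another.
Cdk1: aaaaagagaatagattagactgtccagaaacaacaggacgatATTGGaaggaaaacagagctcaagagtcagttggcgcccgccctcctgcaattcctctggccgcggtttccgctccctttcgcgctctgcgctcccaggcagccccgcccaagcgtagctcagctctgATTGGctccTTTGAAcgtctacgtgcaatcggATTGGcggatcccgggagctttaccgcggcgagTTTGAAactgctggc
Ccnb2: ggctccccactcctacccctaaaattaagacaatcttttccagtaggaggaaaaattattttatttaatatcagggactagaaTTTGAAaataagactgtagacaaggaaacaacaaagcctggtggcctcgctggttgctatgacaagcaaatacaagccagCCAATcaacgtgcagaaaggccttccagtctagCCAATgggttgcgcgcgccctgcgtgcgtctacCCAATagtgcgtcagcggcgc
Paics: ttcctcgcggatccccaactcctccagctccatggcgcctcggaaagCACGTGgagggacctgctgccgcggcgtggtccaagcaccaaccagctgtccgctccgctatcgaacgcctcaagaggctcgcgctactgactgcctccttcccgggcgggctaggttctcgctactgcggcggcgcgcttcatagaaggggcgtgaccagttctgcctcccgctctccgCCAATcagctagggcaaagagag
The Cdk1 stretch held 3 matches to CCAAT and 2 to TTTGAA, the Ccnb2 stretch 3 and 1, and the Paics stretch 1 CACGTG and 1 CCAAT. Across the promoters of the mitosis genes with an entry (30 of 35 genes, 32 promoters), 78.1% held CCAAT and 37.5% held TTTGAA, and 33.8% and 16% did so among all 32851 promoters on record. CCAAT was also frequent in lists that did not fall as a whole, at 57.7% for the quiescence genes, of which 19 of 21 rose, and 64.3% for the plasma cell genes. For the serine, folate and purine genes (18 of 20 genes, 20 promoters), CACGTG was present in 4 promoters, and over all promoters in 6.02%. The promoters of the ribosome biogenesis genes, of which 35 of 36 fell, held it in 5.41% (2 of 37). A match describes the letters of the window and shows neither a bound site nor a cause, and Paics itself had 32.9 and 40.5 FPKM in Fraction 6, against 97.9 and 96.8 FPKM in Fraction 2.

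The genes that govern the G1 phase split in direction. Of 19 tested members, 11 fell and 6 rose. Cdk4, a G1 kinase, had 57.8 and 71.2 FPKM in Fraction 6, against 176 and 169 FPKM in Fraction 2, and its partner Ccnd3, cyclin D3, which sustains dark zone divisions, had 62.2 and 60.02 FPKM in Fraction 6, against 186 and 175 FPKM in Fraction 2 (log2 change -1.55 ± 0.09). Ccne2, cyclin E2 of S phase entry, had 0.673 and 0.617 FPKM in Fraction 6, against 10.7 and 6.95 FPKM in Fraction 2. All 3 were lower in both Fraction 6 libraries. Cdkn1b, the p27 inhibitor of resting cells, rose, with 26.8 and 32.8 FPKM in Fraction 6, against 8.77 and 8.55 FPKM in Fraction 2 (log2 change 1.67 ± 0.16), and so did Rbl2, a pocket protein of quiescence, with 13.4 and 14.1 FPKM in Fraction 6, against 9.27 and 8.77 FPKM in Fraction 2. E2f2 also rose, at 46.9 and 45.5 FPKM in Fraction 6, against 34.2 and 33.6 FPKM in Fraction 2, whereas E2f1 fell, at 8.10 and 6.74 FPKM in Fraction 6, against 28.4 and 25.6 FPKM in Fraction 2. Among the cyclin D genes, Ccnd3 was lower and Ccnd2 slightly higher in Fraction 6, and Ccnd1 stayed under 1 FPKM in all 4 libraries. As given above, the rise of Ccnd2 was not called when any 1 of the 4 libraries was left out. The number of rising members was 3 without Fraction 6 library 2 or without Fraction 2 library 1.

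**Figure D3:**
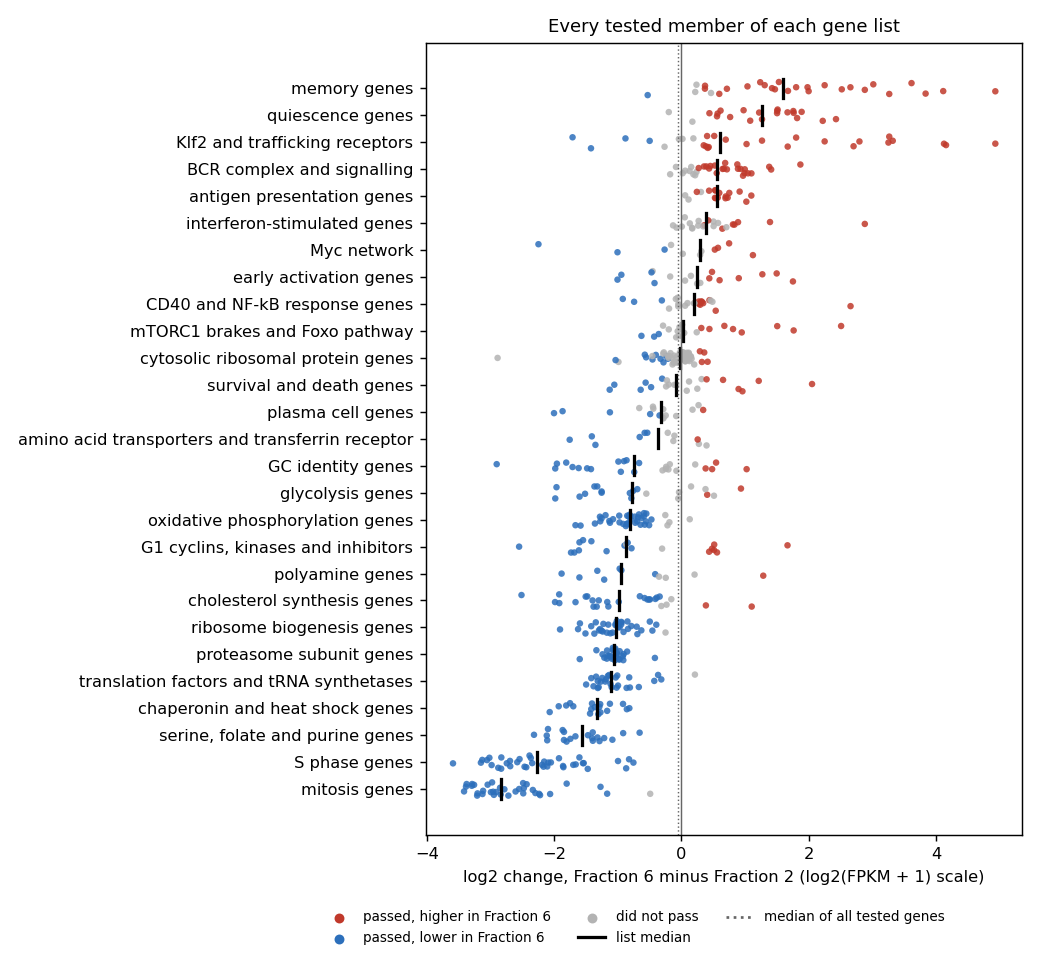
Log2 change, Fraction 6 minus Fraction 2, of every tested member of 27 gene lists (1 point a gene), ordered by the list median (black bar), with members that rose in red, members that fell in blue and members that did not pass in grey. Medians run from 1.6 for memory genes to -2.84 for mitosis genes, and the dotted line is the median of all tested genes at -0.06.

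Genes of resting cells rose. Of 21 tested quiescence genes, 19 rose, none fell and 2 did not pass, at a median log2 change of 1.27. Foxp1, a transcription factor of resting lymphocytes, had 36.8 and 40.4 FPKM in Fraction 6, against 7.35 and 7.62 FPKM in Fraction 2 (log2 change 2.22 ± 0.12). Pik3ip1, an inhibitor of PI3 kinase, stood at 7.93 and 8.63 FPKM in Fraction 6, against 0.734 and 0.715 FPKM in Fraction 2. Tsc22d3, a leucine zipper protein induced by Foxo factors and glucocorticoids, had 21.5 and 26.3 FPKM in Fraction 6, against 5.76 and 6.31 FPKM in Fraction 2. All 3 were higher in both Fraction 6 libraries. The antiproliferative genes Btg1 and Btg2 had 162 and 168 FPKM in Fraction 6, against 59.4 and 56.0 FPKM in Fraction 2 for Btg1 and 78.6 and 78.8 FPKM in Fraction 6, against 27.5 and 26.5 FPKM in Fraction 2 for Btg2. Foxo1 did not pass (log2 change 0.17, adjusted p = 0.347), while Foxo3 rose, at 7.25 and 8.23 FPKM in Fraction 6, against 3.17 and 2.37 FPKM in Fraction 2. Of 20 tested genes of the mTORC1 brakes and the Foxo pathway, 8 rose, 3 fell and 9 did not pass, at a median of 0.03. The largest rises were those of Pdcd4, Ddit4 and Sesn1. Pdcd4, an inhibitor of Eif4a1 that mTORC1 signalling removes, had 71.0 and 83.3 FPKM in Fraction 6, against 13.4 and 12.1 FPKM in Fraction 2 (log2 change 2.51 ± 0.12). Ddit4, a stress-induced mTORC1 inhibitor, had 49.7 and 48.2 FPKM in Fraction 6, against 14.3 and 13.1 FPKM in Fraction 2. Sesn1, a leucine-sensing brake, had 27.7 and 26.2 FPKM in Fraction 6, against 8.69 and 9.03 FPKM in Fraction 2. Neither of the core genes Mtor and Tsc1 passed. Mtor had 7.62 and 8.38 FPKM in Fraction 6, against 9.74 and 6.97 FPKM in Fraction 2. Tsc1 had 6.81 and 6.41 FPKM in Fraction 6, against 8.23 and 7.26 FPKM in Fraction 2. Rheb, the GTPase that switches mTORC1 on, fell, with 16.1 and 20.2 FPKM in Fraction 6, against 28.2 and 28.8 FPKM in Fraction 2. Rps6kb1, which like Rheb is not a brake, fell too, at 13.9 and 17.9 FPKM in Fraction 6, against 20.9 and 20.1 FPKM in Fraction 2. Depdc5, which is one of the brakes, also fell, at 11.5 and 11.2 FPKM in Fraction 6, against 16.6 and 14.7 FPKM in Fraction 2. Among the brakes, Depdc5 was thus lower while Ddit4 and Sesn1 were higher in Fraction 6. Without Fraction 2 library 2, 5 members rose, and without Fraction 2 library 1, 1 fell.

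Antigen receptor and antigen presentation genes were moderately higher in pre-memory cells. Of 31 genes of the BCR complex and its signalling, 22 rose, none fell and 9 did not pass, at a median of 0.55. Cd79a, the signalling chain of the receptor, had 1503 and 1406 FPKM in Fraction 6, against 699.7 and 657 FPKM in Fraction 2. Blk, a Src family kinase, had 191 and 203 FPKM in Fraction 6, against 72.0 and 78.4 FPKM in Fraction 2 (log2 change 1.38 ± 0.08). Inhibitors rose along with activators, with Cd72, an inhibitory coreceptor, at 194 and 171 FPKM in Fraction 6, against 47.6 and 50.6 FPKM in Fraction 2, and Cd22 at 549.7 and 524 FPKM in Fraction 6, against 327 and 327 FPKM in Fraction 2. Plcg2 and Blnk, which act downstream of the kinases, did not pass, with log2 changes of 0.13 and 0.21. Of 18 antigen presentation genes, 15 rose and 3 did not pass, at a median of 0.55. Ciita, the master regulator of MHC class II, had 199 and 182 FPKM in Fraction 6, against 115 and 115 FPKM in Fraction 2. H2-Ob, a chain of the H2-O complex that restrains peptide loading, had 436 and 451 FPKM in Fraction 6, against 206 and 208 FPKM in Fraction 2 (log2 change 1.10 ± 0.07). All of these were higher in both Fraction 6 libraries. Cd40, the receptor of T cell help, did not pass, and its libraries overlapped, with 72.6 and 67.6 FPKM in Fraction 6, against 65.5 and 69.0 FPKM in Fraction 2 (log2 change 0.06, adjusted p = 0.683).

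Responses to CD40 and other activating signals were mixed. Of 23 tested CD40 and NF-kB response genes, 9 rose, 3 fell and 11 did not pass. Ccl22, a chemokine for T cells, had 9.28 and 7.06 FPKM in Fraction 6, against 0.169 and 0.783 FPKM in Fraction 2 (log2 change 2.66 ± 0.40). Batf, an AP-1 factor induced by help, fell, at 29.7 and 31.6 FPKM in Fraction 6, against 56.3 and 48.1 FPKM in Fraction 2, as did Tnfrsf8, which encodes CD30, at 3.91 and 5.78 FPKM in Fraction 6, against 10.8 and 9.13 FPKM in Fraction 2. Nfkbia and Relb did not pass, with log2 changes of -0.05 and 0.09. The number that rose was 4 without Fraction 6 library 2 or without either Fraction 2 library and 15 after quantile normalization, and the number that fell was 1 without Fraction 6 library 1. Among 17 tested early activation genes, 7 rose and 4 fell. Egr3, a factor that restrains receptor signalling, had 18.2 and 21.0 FPKM in Fraction 6, against 5.33 and 4.92 FPKM in Fraction 2. Nr4a1, a nuclear receptor induced by antigen, had 7.34 and 8.91 FPKM in Fraction 6, against 2.45 and 2.01 FPKM in Fraction 2. Egr1 had 18.4 and 18.0 FPKM in Fraction 6, against 24.8 and 24.8 FPKM in Fraction 2. Egr3 and Nr4a1 were thus higher and Egr1 lower in both Fraction 6 libraries. Egr1 was not called when any 1 of the 4 libraries was left out. Over the list, 4 members rose without Fraction 6 library 2, and 1 or 2 fell with any 1 library left out.

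Survival genes rose and fell in equal number. Of 21 tested, 6 rose and 6 fell, where 21.0% of all tested genes rose and 31.2% fell. The median of -0.08 became 0.09 after quantile normalization. Bcl2, the survival protein of resting and memory cells, had 8.34 and 8.09 FPKM in Fraction 6, against 0.765 and 1.8 FPKM in Fraction 2 (log2 change 2.05 ± 0.25), and Mcl1, which germinal centre cells need, had 230.0 and 222 FPKM in Fraction 6, against 124 and 118 FPKM in Fraction 2. Death-promoting genes were found on both sides. Bmf rose, at 10.2 and 13.7 FPKM in Fraction 6, against 5.13 and 3.98 FPKM in Fraction 2, and so did Bbc3, the p53 target PUMA, at 11.5 and 9.01 FPKM in Fraction 6, against 4.30 and 5.27 FPKM in Fraction 2. Bak1, a pore-forming member of the Bcl2 family, fell, at 26.8 and 31.8 FPKM in Fraction 6, against 47.4 and 44.8 FPKM in Fraction 2. The gates did not overlap for Bmf, Bbc3 or Bak1. Bcl2l1, the Bcl-xL gene, did not pass, with 8.75 and 9.51 FPKM in Fraction 6, against 11.1 and 8.83 FPKM in Fraction 2.

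Interferon-stimulated genes rose in 8 of 22 cases and fell in none, and this count was 5 without Fraction 6 library 1 or without Fraction 2 library 2. Ddx58, the RNA sensor RIG-I, was the largest, with 10.4 and 10.4 FPKM in Fraction 6, against 0.431 and 0.677 FPKM in Fraction 2 (log2 change 2.88 ± 0.13), and Irf9, a subunit of the interferon-activated factor, had 33.7 and 26.4 FPKM in Fraction 6, against 15.6 and 15.7 FPKM in Fraction 2. Of 16 plasma cell genes, 5 fell and 1 rose, while 3 fell without Fraction 6 library 1 or without Fraction 2 library 2, and 11 in the fit of the 4 libraries alone. Over all tested genes, 31.2% fell and 21.0% rose. Sdf2l1, a chaperone cofactor of the secretory pathway, had 18.4 and 22.8 FPKM in Fraction 6, against 89.6 and 80.7 FPKM in Fraction 2. Prdm1, the plasma cell master regulator, was under 1 FPKM in all 4 libraries, and Irf4, which rises with differentiation and help and was the member that rose, had 10.2 and 12 FPKM in Fraction 6, against 8.90 and 8.15 FPKM in Fraction 2. Irf4 was not called without Fraction 6 library 2 or without Fraction 2 library 2.

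Fraction 6 was also set beside Fraction 5 (pro-memory, n = 3), a CD38+GL7- gate with high Bcl6-YFP and high Efnb1, to see where each change lies. Both comparisons use the same Fraction 6 libraries, so their values are given side by side. Against Fraction 5, 797 genes (7.07%) were higher and 1171 (10.4%) lower in Fraction 6. The cell cycle lists fell there too, with 34 of 38 S phase genes (median -1.02) and 34 of 35 mitosis genes (median -1.93). So did most germinal centre identity genes, of which 16 of 25 were lower and none higher (median -0.94), and of the memory genes 21 of 28 were higher and 2 lower (median 1.01). Growth lists had medians nearer to 0 against Fraction 5. Of the 36 ribosome biogenesis genes, 10 were higher and 1 lower in Fraction 6 than in Fraction 5 (median 0.19). Of the 20 serine, folate and purine genes, 5 were lower and none higher (median -0.08), and of the 27 translation genes, 1 was higher and 1 lower (median -0.10).

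Single genes show these patterns. Myc had 23.2 and 25.5 FPKM in Fraction 6, 54.6 and 45.4 FPKM in Fraction 2 and 14.2, 14.6 and 18.7 FPKM in Fraction 5, so it was lower in Fraction 6 than in Fraction 2 and higher than in Fraction 5 (log2 change against Fraction 5 0.60, adjusted p = 0.00682). Srm had 9.56, 11.8 and 11.7 FPKM in Fraction 5, the lowest of these 3 gates, so Fraction 6 again lay between the others (log2 change against Fraction 5 0.82). Ccnd2 was lowest in Fraction 5 of these 3 gates, at 6.25, 8.13 and 4.55 FPKM, and rose by 1.25 in Fraction 6 over it (adjusted p = 0.000167). Plk1 had 28.6, 32.1 and 26.3 FPKM in Fraction 5, between its levels in Fractions 6 and 2. S1pr2 had 153, 148 and 153 FPKM in Fraction 5, above both other gates. In the mature memory gate, Fraction 7, S1pr1 reached 119, 98.1 and 96.7 FPKM, Klf2 287, 204 and 217 FPKM and Bcl2 21.6, 19.0 and 15.7 FPKM, and Plk1 stood at 1.98, 4.04 and 3.26 FPKM. Both Fraction 6 libraries lay above all 3 of Fraction 7 for Plk1 and below all 3 for S1pr1, Klf2 and Bcl2.

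**Figure D4:**
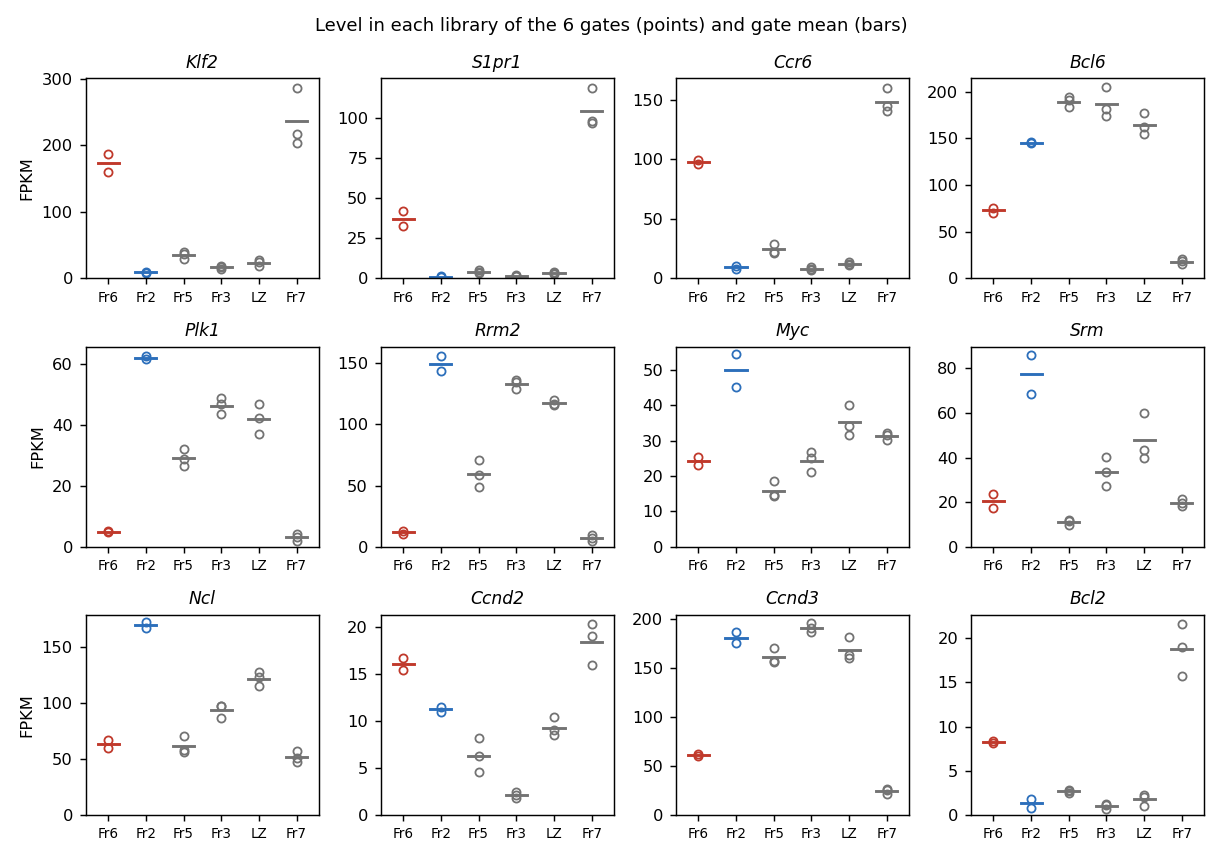
FPKM of 12 genes in every library of the 6 gates (open circles) with the gate mean (bar): Fraction 6 in red, Fraction 2 in blue, then Fractions 5 and 3, the whole light zone gate (LZ) and Fraction 7 in grey, each panel with its own linear axis from 0. Klf2, S1pr1 and Ccr6 are high in Fractions 6 and 7, Plk1 and Rrm2 are low in both, and Myc, Srm and Ncl are highest in Fraction 2.

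Gene by gene, the changes of largest size included many small RNAs. By the size of the change among genes that passed, 9 of the 12 largest rises and 1 of the 12 largest falls were small nucleolar, small Cajal body or micro RNA genes, whose log2 changes had a median SE of 2.1, against 0.146 over all tested genes. Of 181 tested genes of this kind, 12 rose and 7 fell. With these left out, an alternative chosen after seeing the data, the 12 largest rises included, besides S1pr1, Klf2, S100a10, Cd55, Plac8, Itgb7, Ccr6 and Klf3, also Arhgef18, Pml and Gvin1. Arhgef18, a guanine nucleotide exchange factor, had 32.0 and 38.9 FPKM in Fraction 6, against 2.08 and 2.54 FPKM in Fraction 2. Pml, the organizer of nuclear bodies, had 14.8 and 18.6 FPKM in Fraction 6, against 0.527 and 0.737 FPKM in Fraction 2. Gvin1, an interferon-inducible GTPase with near copies in the genome and so of uncertain level, had 15.6 and 11.9 FPKM in Fraction 6, against 0 and 1.05 FPKM in Fraction 2. The largest fall was that of 2810417H13Rik with 13 and 16.9 FPKM in Fraction 6, against 208 and 212 FPKM in Fraction 2. That gene carries no name in the deposited table beyond its clone symbol. Birc5, survivin of the mitotic passenger complex, had 7.82 and 10.8 FPKM in Fraction 6, against 106 and 125 FPKM in Fraction 2. Stmn1, which destabilizes microtubules, had 43.4 and 46.6 FPKM in Fraction 6, against 442 and 456 FPKM in Fraction 2.

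Markers of other cells were present at different levels. The summed level of 14 myeloid markers was 34.5 and 18.6 FPKM in Fraction 6, against 9.14 and 6.98 FPKM in Fraction 2, and 4 of the 9 tested members rose (2 after quantile normalization). Lyz2 had 5.70 and 1.08 FPKM in Fraction 6, against 0 and 0.194 FPKM in Fraction 2, and the granule genes Mpo and Elane had 4.86 and 0 FPKM and 4.40 and 0 FPKM in Fraction 6 and were listed at 0 in Fraction 2, so Fraction 6 library 1 alone held them. The other 3 that rose were higher in Fraction 6 library 2. Itgam, an integrin chain of myeloid cells, had 0.649 and 1.53 FPKM in Fraction 6, against 0.0312 and 0.178 FPKM in Fraction 2. Emr1 had 1.06 and 1.41 FPKM in Fraction 6, against 0 and 0.131 FPKM in Fraction 2, and Fcer1g, an Fc receptor chain, had 0.971 and 1.53 FPKM in Fraction 6, against 0.149 and 0 FPKM in Fraction 2. In the mature memory gate, Fraction 7, Itgam had 12.8, 8.22 and 12.5 FPKM and Emr1 1.23, 2.46 and 1.17 FPKM. Fcer1g had 0.299, 0.425 and 0.964 FPKM in Fraction 7, and Lyz2 had 1.08, 2.04 and 3.34 FPKM there. Cd14, Ngp and Camp were at 0 in all 4 libraries. The fit without Fraction 6 library 1 leaves out the library where Mpo, Elane and Lyz2 were higher. It keeps library 2, where Itgam, Emr1 and Fcer1g were higher, so it cannot settle the part of myeloid RNA as a whole. The part of myeloid cells in the rises of S100a10, S100a6, Plac8 and Vim was not tested. Naive and marginal zone B cell markers rose in 5 of 9 tested cases and fell in none, with a summed level of 735 and 808 FPKM in Fraction 6, against 359 and 373 FPKM in Fraction 2; 4 of them, including Plac8, Fcer2a and Cr2, also stand in the memory list, and the part of naive cells in these rises was not tested. The T cell genes Cd3e and Cd3g were at 0 in all 4 libraries, and of the 4 T cell markers that were tested 1 rose, Cd5, which B cells can also express, with 1.90 and 1.49 FPKM in Fraction 6, against 0.255 and 0.568 FPKM in Fraction 2; the summed level of the T cell markers was 23.2 and 27.7 FPKM in Fraction 6, against 37.3 and 28 FPKM in Fraction 2. Of the stromal markers, Col1a1, Col1a2 and Col3a1 were at 0 in all 4 libraries, while Pecam1, an adhesion molecule found on endothelium and leukocytes, rose, with 57.1 and 55.7 FPKM in Fraction 6, against 16.1 and 20.3 FPKM in Fraction 2. Plasma cell markers summed to 310 and 319 FPKM in Fraction 6, against 471 and 454 FPKM in Fraction 2. None of 5 tested erythroid markers passed, with sums of 123 and 97.5 FPKM in Fraction 6, against 56.6 and 104 FPKM in Fraction 2.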

How the data were processed

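Gene expression was measured by RNA sequencing of sorted cells; the library kit named in the labels' protocols does not mark strand. The authors deposited FPKM values per gene for all 16 libraries; per the submitters' processing notes the tools were TopHat2 2.0.8 and Cufflinks 2.1.1 with genome build mm9. FPKM holds no read counts, so no count test was run, and depth is known only relative to another library. From these values, limma 3.58.1 (R 4.3.3) was fitted to log2(FPKM + 1) for the 11266 of 23234 named genes that reached 1 FPKM in 2 or more of the 16 libraries (1 row without a name was left out). One model with 6 gate means, all 16 libraries and 10 residual degrees of freedom was used, with a mean-variance trend and Benjamini-Hochberg adjustment over all genes tested. The fit was tested on simulated data. Tables and plots were made with Python 3.11.15, pandas 2.3.3, numpy 2.4.6 and matplotlib 3.10.9. In the gene lists, 13 members were matched by an older symbol and 7 were not found.

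The members and lists were chosen with earlier results of these data known. Genes were named by a rule: the 5 markers, the genes of the sort, the 12 largest rises and falls whose higher gate averaged 5 FPKM or more and whose libraries did not overlap between gates, and up to 4 members of each list in each direction by smallest adjusted p, with any member that did not pass. Other list members that passed were chosen for their known role after their values were seen. Alternatives were 2 other scalings, another pseudocount, 3 other filters, other sets of libraries, array weights, the replicate number as a block, and each of the 4 libraries left out. Crossed pairing and the lists without small RNA genes were added after seeing the data. Some genes are not reported here by name.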

Additional observations from a re-analysis of the deposited data

How the results depend on the processing

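In every alternative run, between 1643 and 3107 genes rose in Fraction 6 and between 2794 and 3676 fell, within 1.5 times the counts of 2365 and 3520. With each of the 4 libraries left out in turn, 1820 to 1967 rose and 2933 to 3153 fell. After quantile normalization 3107 rose and 2953 fell, and after median-ratio scaling 2805 rose and 3296 fell. Of 187 named genes that passed, 144 kept direction and call in every alternative. Only Sec11c changed sign, with a log2 change of 0.0008 after quantile normalization and -0.34 without it (limma adjusted p = 1.0 and 0.0184); the cause was not tested. Leaving out a library removed between 20 and 28 of these calls, the model without a filter 19 and quantile normalization 12. With the replicate number as a block, 2434 genes rose and 3577 fell in the fit of 16 libraries, and 1643 rose and 2794 fell in the 4 libraries alone, where 27 of the calls were lost and antigen presentation genes that rose numbered 9. The labels do not say that a number marks a shared batch, and the deviations of same-numbered libraries correlated at -0.102. With crossed numbers, 2428 genes rose and 3571 fell, and 1779 and 2950 in the 4 libraries alone. Depth is not known in reads, so no counting error can be given for low values.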
